A study of Mus musculus with 15 samples.

Results

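The levels of 6 noncoding transcripts were followed across sorted mouse β cells: *Malat1*, *Neat1*, *Snhg11* and *Miat*, grouped as RNAs kept in the nucleus, and *Gas5* and *Snhg1*, grouped as snoRNA host genes of the terminal oligopyrimidine class. These 6 genes, of 23699 lines in each gene table and 22924 genes kept after removing repeated or failed lines, were chosen by name, with the contrast of ALDH+ against ALDH- cells in these same libraries already known. Their ALDH values are therefore given as a description with no test. Tests are given for genotype averaged over both populations and for cre driver.

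The cells were islet cells that carried a red fluorescent label (RFP) switched on by Cre, sorted by aldefluor, a dye that stays in cells with aldehyde dehydrogenase (ALDH) activity. Islets came from mice of a mixed 129J and C57BL/6 background, and RNA was poly-A selected and made into TruSeq libraries. Of 15 libraries, 3 were from control ALDH- cells (replicates 1 and 2 Rip-cre, 3 Pdx-cre), 2 from control ALDH+ cells (1 Rip-cre, 2 Pdx-cre), and 5 each from Foxo knockout ALDH- and ALDH+ cells (1 to 3 Rip-cre, 4 and 5 Pdx-cre in each). Per the labels, controls were heterozygous and knockouts homozygous mutant for Foxo1, Foxo3 and Foxo4, while the methods of the study describe the Rip-cre controls as Foxo +/+. Rip-cre mice were 6 months old, and the age of the Pdx-cre mice was not given in the sources used here. Rip-cre acts in cells that express insulin, whereas Pdx-cre acts in pancreatic precursors, so that label can also mark other cells of pancreatic origin. The labels do not say which libraries came from separate animals, so p-values measure the spread between these libraries, which may be partly technical. For the Rip-cre mice the methods give 10 to 20 animals per genotype, with both populations gated in the same sort. Libraries may therefore be pools, and ALDH- and ALDH+ libraries may be paired.

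The sort and the knockout were visible in the tables. *Aldh1a3* lay between 0.490 and 4.09 FPKM (fragments scaled by transcript length and library size) in the ALDH- libraries and between 22.1 and 76.9 FPKM in the ALDH+ libraries. *Foxo1* lay between 12.04 and 20.1 FPKM in controls and between 0.0925 and 4.24 FPKM in knockouts, whereas *Foxo3* overlapped, with 12.7 to 23.0 FPKM in controls and 9.78 to 30.6 FPKM in knockouts, and *Foxo4* was at or below 1.34 FPKM throughout. Of 10 β-cell markers, 8 could be read (*Ins1* and *Ins2* had estimates that failed or were too deep), and all 8 were present. Their summed FPKM was 84052 to 128161 in ALDH- libraries and 35641 to 99680 in ALDH+ libraries, with none of the 8 called different, and the part of this in the results below was not tested. Markers of other cells were not level. *Ppy*, which encodes pancreatic polypeptide, was lower in ALDH+ cells (-2.10 on the log2 scale, the only marker of these lists called), with 206 to 8978 FPKM in ALDH- libraries and 97.4 to 2132 FPKM in ALDH+ libraries. The delta-cell markers *Sst* and *Hhex* summed to 414 to 13646 FPKM and 507 to 2990 FPKM, with none called. The part of these in the results below was not tested. Summed FPKM of 7 acinar markers was 367 in Foxo knockout ALDH- replicate 5, 1393 in control ALDH+ replicate 2 and 652 in Foxo knockout ALDH+ replicate 5, all Pdx-cre, and at most 8.30 in the other 12 libraries. *Gcg*, which encodes glucagon, was between 5822 and 35840 FPKM in 4 of the 6 Pdx-cre libraries and at most 1016 FPKM in the other 11 libraries. The 4 endothelial markers summed to at most 1.48 FPKM and 5 mesenchymal markers to at most 0.736 FPKM. The fitted differences and the counts of called genes below were also computed without the 3 libraries rich in acinar transcripts. In sorted pools, a change in the share of cells of one kind and a change in RNA per cell cannot be told apart.

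*Malat1* accumulates in nuclear speckles, bodies rich in splicing factors, and its end is formed by RNase P, which leaves a genome-encoded A-rich tract in place of an ordinary poly-A tail. *Neat1* is the scaffold of paraspeckles and is made as a short polyadenylated form and a long form. *Miat* is a nuclear RNA best known from neurons, and *Snhg11* is a transcript prominent in neurons whose introns carry snoRNAs. *Gas5* and *Snhg1* are spliced hosts of box C/D snoRNAs: the introns give small RNAs that guide methylation of ribosomal RNA, and the exons leave a short-lived transcript that ribosomes read and nonsense-mediated decay removes. Transcripts of the terminal oligopyrimidine class, which also holds the mRNAs of ribosomal proteins, begin with a C followed by a run of pyrimidines, through which growth signals set their translation.

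The tables place *Malat1* at chr19:5795690-5802671 (mm9), *Neat1* at chr19:5842302-5845478, *Snhg11* at chr2:158201374-158211881, *Miat* at chr5:112642248-112657968, *Gas5* at chr1:162965297-162968668 and *Snhg1* at chr19:8797977-8800816. The *Neat1* line spans 3177 bases, where the exons of the gene in GENCODE M21 cover 20771 bases, so it reads the part at the short form and says nothing of the long form alone. For the *Snhg1* line the fragments and the FPKM together imply a length of about 274 bases, against 865 bases of exons in GENCODE, and for *Gas5* about 2416 bases against 851. Levels of those 2 genes per length rest on those lengths. Within the span of *Gas5* the tables list *Snord47*, at 0 in all 15 libraries. Within that of *Snhg1* they list *Snord22*, a 126-base line at 46.0 to 525 FPKM (median 189). Where reads of host and snoRNA overlap, the sources used here do not say how they were divided.

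The annotated starts were searched for the pyrimidine tract that names the class. RefSeq windows (GRCm38.p6) of 70 bases, 40 before the start and 30 from it on, are printed 5′ to 3′ for both host genes, for *Malat1* as a nuclear RNA without a match, and for *Miat*, which had one. Capitals mark a tract, defined as a C and at least 4 further C or T in one run, its first C within 10 bases of the annotated start, on the transcribed strand. The windows are chr1:161035126-161035195 (+) for the second of 2 *Gas5* starts, chr19:8723447-8723516 (+) for *Snhg1*, chr19:5802643-5802712 (-) for *Malat1* and chr5:112228919-112228988 (-) for *Miat*.
Gas5: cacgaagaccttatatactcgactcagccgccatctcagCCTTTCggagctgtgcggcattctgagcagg
Snhg1: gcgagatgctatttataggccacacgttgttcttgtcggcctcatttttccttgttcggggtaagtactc
Malat1: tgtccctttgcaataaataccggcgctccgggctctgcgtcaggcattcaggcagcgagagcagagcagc
Miat: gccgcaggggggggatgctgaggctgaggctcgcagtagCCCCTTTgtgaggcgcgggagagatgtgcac

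The tract at *Gas5* had 6 bases and that at *Miat* 7, each with its first C at position -1 from the annotated start. The first *Gas5* start, *Snhg1*, *Malat1* and *Snhg11* had no tract by this definition, and *Neat1* had no entry. The same match was found at 29% of 32851 annotated starts. At 1 or more starts per gene it was found in 32.6% of 27025 genes and in 34 of the 57 ribosomal protein genes with an entry (59.6%). A match on its own is therefore a description of these letters, and a missing match does not place a gene outside the class.

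The levels of the 6 transcripts covered several orders of magnitude. *Malat1* was the highest in every library and ranked between 2nd and 208th of the 22924 genes by FPKM (median rank 7). It alone took between 0.200% and 1.05% of all fragments in the ALDH- libraries and between 1.46% and 3.296% in the ALDH+ libraries. The order *Malat1*, *Snhg1*, *Neat1*, *Gas5*, *Snhg11*, *Miat* held in 9 libraries. *Neat1* stood above *Snhg1* in 5 others and below *Gas5* in 1, so these neighbours did not keep their order across libraries. Fragments are not divided by a length, and so favour longer lines. In fragments *Neat1* had 1005 to 10972, *Gas5* 508 to 1656 and *Snhg1* 349 to 761 per library, so that *Neat1* was above *Snhg1* in all 15. The place of *Snhg1* in the order thus depends on whether and by which length fragments are divided.

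*Miat* was listed at 0 in 13 of the 15 libraries. It stood at 0.0124 FPKM in control ALDH+ replicate 1 and at 0.0129 FPKM in Foxo knockout ALDH+ replicate 3, each worth less than 1 fragment. It did not pass the minimum for testing, a mean of 1 FPKM after rescaling, and the other 5 members did. No comparison of *Miat* is possible at this depth of 7490987 to 10057002 fragments per library.

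In *Malat1* the 2 sorted populations were wholly apart. Control ALDH- cells had 514, 229.9 and 761 FPKM in replicates 1 to 3 (mean 501 ± 266, SD, n = 3), and Foxo knockout ALDH- cells had 1420.1, 577, 1338, 1299.5 and 298 FPKM in replicates 1 to 5 (986 ± 513, n = 5). Control ALDH+ cells had 4371 and 4047 FPKM (4209 ± 229, n = 2), and knockout ALDH+ cells had 2485, 1801, 4027, 2379 and 3347 FPKM (2808 ± 877, n = 5). All 7 ALDH+ libraries lay above all 8 ALDH- libraries, as for 0.364% of all 11253 genes tested, a separation on which the choice of the gene rests. The 5 knockout ALDH+ libraries all lay below both control ALDH+ libraries, as for 4.59% of all genes tested. The fitted difference, averaged over genotypes on the scale of log2(rescaled FPKM + 1), was 2.44 (standard error 0.36), or 5.43-fold. It was 3.19 (0.60) in controls and 1.69 (0.41) in knockouts.

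*Neat1* separated in the same way at a lower level. Its FPKM was 48.1, 27.2 and 79.6 in control ALDH- cells and 112, 56.6, 133, 88.7 and 47.1 in knockout ALDH- cells. In ALDH+ cells it was 268 and 270.5 in controls and 274, 147, 404, 189 and 272 in knockouts. The lowest ALDH+ library, knockout replicate 2, was still above the highest ALDH- library, and within each population the genotypes overlapped. The averaged difference was 2.02 (standard error 0.30), or 4.05-fold, with 2.45 in controls and 1.58 in knockouts.

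*Snhg11* had the widest spread of the members. Control ALDH- cells had 3.47, 0.909 and 3.04 FPKM, and knockout ALDH- cells 12.7, 11.5, 8.54, 4.97 and 0.594 FPKM, the last resting on 34 fragments. Control ALDH+ cells had 39.1 and 18.5 FPKM, and knockout ALDH+ cells 15.8, 11.1, 45.8, 9.23 and 19.4 FPKM. The populations were apart in controls, as for 14% of all genes tested (2 ALDH+ libraries above 3 ALDH- libraries), whereas in knockouts the 2 lowest ALDH+ libraries (11.1 and 9.23) lay within the range of the ALDH- libraries. The averaged difference was 2.32 (standard error 0.42), or 4.98-fold, with 3.22 in controls and 1.42 in knockouts. In the Rip-cre knockout ALDH- libraries *Snhg11* was between 8.54 and 12.7 FPKM, against 4.97 and 0.594 in the Pdx-cre ones. The share of all genes split so was not worked out. In knockout ALDH+ cells the drivers overlapped (11.1 to 45.8 with Rip-cre, 9.23 and 19.4 with Pdx-cre). The Pdx-cre control ALDH- library (3.04) lay between the Rip-cre ones.

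**Figure D1:**
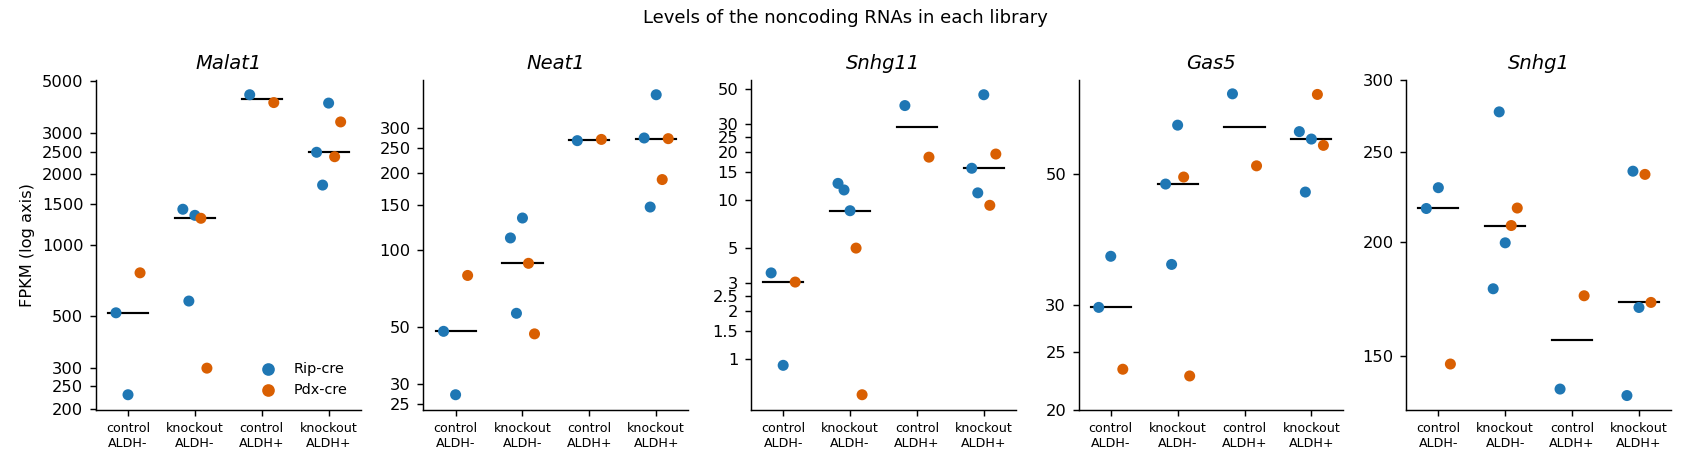
FPKM of *Malat1*, *Neat1*, *Snhg11*, *Gas5* and *Snhg1* on log axes, 1 point per library, coloured by cre driver, with the group median as a bar (n = 3, 5, 2 and 5 libraries from left to right). *Malat1* and *Neat1* were higher in all 7 ALDH+ libraries than in any of the 8 ALDH- libraries (0.364% of all genes tested separate so), while the other 3 genes overlapped.

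The host genes had smaller fitted differences between the populations. *Gas5* was at 29.8, 36.3 and 23.4 FPKM in control ALDH- cells and at 48.1, 35.2, 60.4, 49.4 and 22.8 FPKM in knockout ALDH- cells. In ALDH+ cells it was at 68.2 and 51.6 FPKM in controls and at 58.9, 46.6, 57.2, 68.1 and 55.9 FPKM in knockouts. Controls did not overlap between the populations, as for 14% of all genes tested. Knockout ALDH- replicate 3 was above 4 of the 5 knockout ALDH+ libraries. The averaged difference was 0.74 (standard error 0.17), or 1.66-fold, with 0.99 in controls and 0.48 in knockouts. It was 1.07 after removing the dependence of the values on transcript length. That step used the GENCODE exon length of 851 bases and not the implied 2416, so it is no check on this gene.

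*Snhg1* was the only member with a lower fitted level in ALDH+ cells. It had 217, 229 and 147 FPKM in control ALDH- cells and 178, 277, 199, 208 and 218 FPKM in knockout ALDH- cells, against 138 and 175 FPKM in control ALDH+ cells and 136, 239, 169.5, 237 and 172 FPKM in knockout ALDH+ cells. The populations overlapped in both genotypes. The averaged difference was -0.27 (standard error 0.16, 95% interval -0.61 to 0.07), so no direction can be given for it. It was 0.06 after removing the dependence on transcript length. That step used the GENCODE exon length of 865 bases and not the implied 274, so it is no check on this gene.

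Ratios within libraries set the nuclear RNAs against the host genes. Of 4 such ratios only *Malat1* to *Gas5* did not overlap between the populations, by a narrow margin (32.5 against 34.9). *Malat1* on its own was already apart, and the share of gene pairs that separate so was not worked out. The ratio of *Malat1* to *Snhg1* FPKM lay between 1.00 and 7.99 in ALDH- libraries (median 3.77) and between 7.55 and 31.6 in ALDH+ libraries (median 19.5), and that of *Malat1* to *Gas5* between 6.33 and 32.5 and between 34.9 and 78.5. Between those nuclear RNAs the ratio overlapped: *Malat1* stood at 6.34 to 14.6 times *Neat1* in ALDH- libraries and at 9.07 to 16.3 times in ALDH+ libraries. The ratio of *Neat1* to *Snhg1* lay between 0.119 and 0.669 in ALDH- libraries and between 0.617 and 2.38 in ALDH+ libraries, and that of *Snhg11* to *Gas5* between 0.0251 and 0.328 and between 0.136 and 0.800. The ratio of *Gas5* to *Snhg1* lay between 0.105 and 0.303 in ALDH- libraries and between 0.195 and 0.494 in ALDH+ libraries. These ratios restate the contrast by which the genes were chosen. Across all 11253 genes tested in the ALDH comparison, 5.98% passed an adjusted p of 0.05 (limma, Benjamini-Hochberg), and the median log2 difference was -0.02. The sizes for *Malat1*, *Neat1*, *Snhg11* and *Gas5* moved little without any single library (2.19 to 2.73, 1.81 to 2.30, 2.04 to 2.64 and 0.63 to 0.79) or without the 3 acinar-rich libraries (2.32, 1.93, 2.12 and 0.72). The number of calls over all genes did depend on 1 library: it fell from 673 to 3 without control ALDH+ replicate 1, which left that group with a single, Pdx-cre library assumed to vary like the rest.

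Foxo genotype was tested next, as it did not enter the choice of the genes. No member passed the threshold. Averaged over ALDH status, where 0.116% of all genes were called, the log2 difference of knockout minus control was 0.15 for *Malat1*, 0.33 for *Neat1*, 0.22 for *Snhg11*, 0.22 for *Gas5* and 0.21 for *Snhg1*, with adjusted p (limma) between 0.85 and 0.96. The 95% intervals were -0.62 to 0.92 for *Malat1* and -0.30 to 0.95 for *Neat1*, so differences of either sign within those bounds remain possible. An exact permutation test of the genotype labels within ALDH status and cre driver (360 arrangements, two-sided) gave p between 0.19 and 0.63 for the 5 members, and 0.67 or more after adjustment over the 10 tests made on them.

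Within the populations the fitted values had opposite signs for 4 members. These values use the same control libraries as the ALDH contrast by which the genes were chosen, and are given as a description with no test. In ALDH- cells, *Malat1*, *Neat1* and *Snhg11* had fitted differences of 0.90 (standard error 0.48), 0.76 (0.39) and 1.12 (0.55) for knockout minus control, and *Gas5* had 0.47 (0.23), where 0.0178% of all genes were called. For *Malat1* and *Neat1*, 3 of the 5 knockout ALDH- libraries lay above all 3 control libraries, and for *Snhg11* 4 of the 5 did. The share of all genes with such counts was not worked out, so they only describe these libraries. In ALDH+ cells the values were -0.60 (0.55), -0.11 (0.44), -0.68 (0.63) and -0.04 (0.26). There 0% of genes were called by limma, with 744 at an unadjusted p below 0.05. For *Snhg1* the same differences were 0.13 (0.21) and 0.30 (0.24).

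The genotype by ALDH interaction, for which limma called 0% of genes (476 at an unadjusted p below 0.05), is the ALDH difference in knockouts minus that in controls. The difference in controls was part of what chose the members, so the sign of the interaction is not independent of the choice and no test is given. It was -1.50 (standard error 0.73) for *Malat1*, -0.87 (0.59) for *Neat1*, -1.80 (0.84) for *Snhg11*, -0.52 (0.35) for *Gas5* and 0.17 (0.32) for *Snhg1*.

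**Figure D2:**
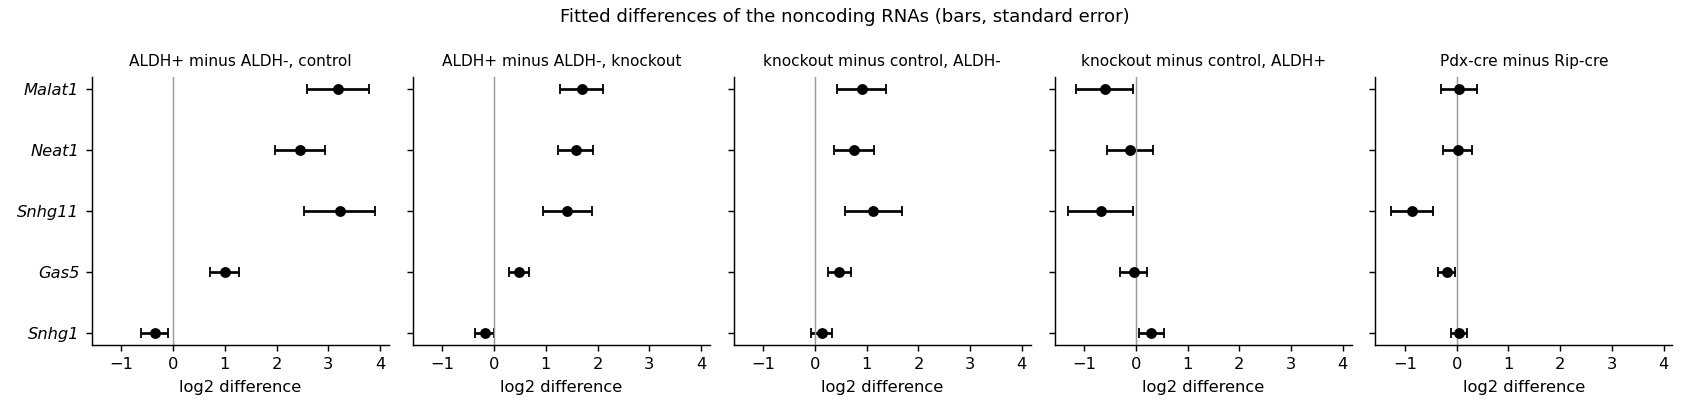
Fitted log2 differences of the 5 members with a fit, with standard errors as bars, for ALDH+ minus ALDH- cells in each genotype, knockout minus control in each population, and Pdx-cre minus Rip-cre. *Malat1*, *Neat1* and *Snhg11* stood at 2.45 to 3.22 in the control ALDH panel and at 1.42 to 1.69 in the knockout one.

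The cre driver was called for 9.73% of all genes but for no member. Pdx-cre minus Rip-cre was 0.04 for *Malat1* (95% interval -0.70 to 0.77), 0.02 for *Neat1* (-0.57 to 0.62), -0.19 for *Gas5* (-0.54 to 0.16) and 0.05 for *Snhg1* (-0.28 to 0.37). The signs of *Malat1*, *Neat1* and *Snhg1* turned without rescaling, and that of *Snhg1* also after removing the length dependence (-0.25). *Snhg11* had the largest value of the 5, -0.86 (standard error 0.40), with an unadjusted p of 0.047 and an adjusted p of 0.19 by limma. An exact permutation of the cre labels within groups (600 arrangements, two-sided) gave 0.095 for it and 0.32 or more for the others. Without the acinar-rich libraries, its value was -0.54. *Gcg* and acinar transcripts moved with the cre driver, as given above, and their part in these values was not tested. The ALDH difference within each driver is given as a description: of *Malat1* it was 2.42 in Rip-cre and 2.47 in Pdx-cre libraries, of *Neat1* 2.10 and 1.89, of *Snhg11* 2.17 and 2.53, of *Gas5* 0.56 and 0.99, and of *Snhg1* -0.43 and -0.04. The ALDH difference in Rip-cre controls was part of what chose the members, so no test of the cre driver by ALDH interaction is given for them. The interaction was called for 0% of all genes by limma (511 at an unadjusted p below 0.05). Without the acinar-rich libraries its sign turned for *Malat1* and *Snhg11*, with the values given further below. The closeness of the drivers for *Malat1* therefore depends on those libraries.

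Across the 15 libraries the members did not move as one group. Pearson's r of log2(rescaled FPKM + 1) was 0.97 between *Malat1* and *Neat1*, 0.90 between *Malat1* and *Snhg11*, 0.83 between *Malat1* and *Gas5*, and -0.57 between *Malat1* and *Snhg1*. The libraries share the ALDH difference, so r was also computed after taking out the means of group and cre driver. It was then 0.91, 0.86, 0.56 and -0.60. The 2 host genes had r = -0.37 with each other, and -0.28 after the means were removed. These are descriptions over 15 libraries, and all values of a library share its scaling.

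**Figure D3:**
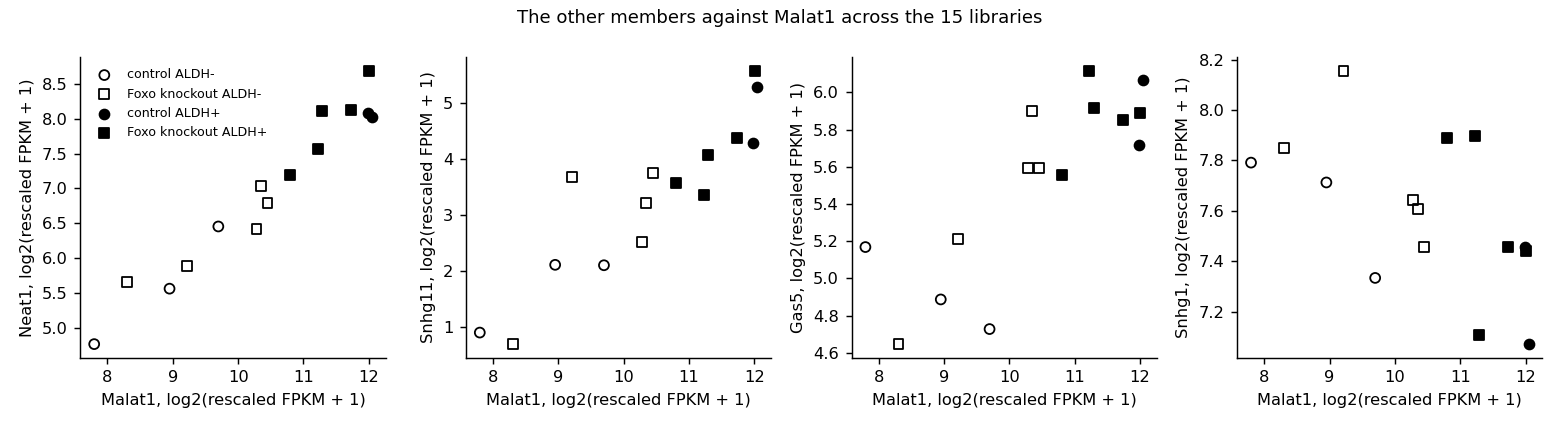
*Neat1*, *Snhg11*, *Gas5* and *Snhg1* plotted against *Malat1* in the 15 libraries as log2(rescaled FPKM + 1), with open symbols for ALDH-, filled for ALDH+, circles for control and squares for Foxo knockout. *Neat1* followed *Malat1* closely (r = 0.97), while *Snhg1* ran the other way (r = -0.57).

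The genes most like each member were found over all genes tested. After *Neat1* (r = 0.97), those nearest to *Malat1* were *Meg3* (0.96) and the entry *6720401G13Rik* (0.96). After *Malat1*, those nearest to *Neat1* were *2900005J15Rik* (0.96) and *B230206F22Rik* (0.94). *Snhg11* was nearest to *Meg3* (0.97), to *Sfrs18*, a splicing-related protein (0.94), and to *Kcnq1ot1* (0.94). *Gas5* was nearest to *Ogt*, the O-GlcNAc transferase (0.91), to the snoRNA line *Snora81* (0.90) and to *Luc7l*, a splicing factor (0.89). *Snhg1* was nearest to *Mki67ip*, a nucleolar protein (0.91), to *Eci2*, an enoyl-CoA isomerase (0.82), and to *Lypla2*, a thioesterase (0.79). So neither host gene had the other, or another gene of a host list, among its nearest 3.

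Related genes were then counted in the ALDH comparison, beside the 5.98% of all genes called. The lists were drawn up with the ALDH results of these libraries known, among them those of ribosomal protein genes, *Meg3*, *Kcnq1ot1* and several others named here, so their counts and adjusted p are descriptions and not independent evidence of a direction. Of 17 other nuclear long noncoding RNAs, 12 were in the tables and 7 passed the minimum, and 4 of the 7 were higher in ALDH+ cells and none lower (median log2 difference 1.12). These were *Meg3* (2.15, standard error 0.36, adjusted p 0.0051), *Rian* (0.75, 0.17, 0.016) and *Mirg* (1.12, 0.20, 0.0064), maternally expressed RNAs of 1 imprinted locus, and *Kcnq1ot1* (1.29, 0.24, 0.0077), an imprinted antisense RNA. As no strand is stated, reads of *Kcnq1ot1* and of the gene it overlaps cannot be told apart. *Meg3* lay between 12.9 and 81.2 FPKM in ALDH- libraries and between 94.4 and 263 FPKM in ALDH+ libraries. *Tug1* (0.23), *Xist* (0.79) and *Airn* (1.17) did not pass, and *Xist* varied between libraries from near 0 to 223 FPKM.

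The proteins of the bodies that *Malat1* and *Neat1* occupy did not share one pattern. Of 8 nuclear speckle proteins tested, 3 were higher in ALDH+ cells and none lower (median 0.29): *Pnn*, a splicing-associated protein (1.14, standard error 0.14, adjusted p 0.0019), and the speckle scaffolds *Srrm2* (0.61, 0.12, 0.0093) and *Son* (0.53, 0.12, 0.015). *Pnn* lay between 14.8 and 30.01 FPKM in ALDH- libraries and between 34.2 and 73.7 FPKM in ALDH+ libraries. None of 11 paraspeckle proteins passed (median 0.03, range -0.31 to 0.41), with 2 at an unadjusted p below 0.05. *Sfpq* and *Nono*, which bind *Neat1* in paraspeckles, had -0.004 and 0.03.

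The other snoRNA host genes did not follow *Gas5* or *Snhg1* in any called way. All 11 of the 18 that were in the tables were tested, 0 passed (limma, 2 at an unadjusted p below 0.05), and the median was -0.03, with 5 positive and 6 negative values. The mRNAs assigned by name to the oligopyrimidine class behaved otherwise. Of 79 cytosolic ribosomal protein genes, 69 were lower in ALDH+ cells and none higher (median -0.78, all 79 negative), and the median ribosomal protein lay between 129.7 and 225 FPKM in ALDH- libraries and between 68.8 and 142 FPKM in ALDH+ libraries. The 4 with the smallest p were *Rpl13a* (-0.99), *Rpl18* (-0.81), *Rps3* (-0.87) and *Rps27a* (-0.98), with adjusted p of 0.0031 to 0.0038. Of 15 other mRNAs of the class, 4 were lower and none higher (median -0.41): the elongation factors *Eef1a1* (-0.67) and *Eef1g* (-0.59), the initiation factor *Eif3f* (-0.60) and *Gnb2l1*, a scaffold protein of the ribosome (-0.58), with adjusted p of 0.0059 to 0.045. Ribosomal protein genes have many processed copies, so their levels are uncertain where reads were shared. *Gas5*, at 0.74, was thus above zero where all 79 ribosomal protein genes were below it. *Snhg1*, at -0.27, lay nearer to zero than any of them (nearest -0.38), but its 95% interval (-0.61 to 0.07) includes that nearest value, so it is not set apart from them.

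**Figure D4:**
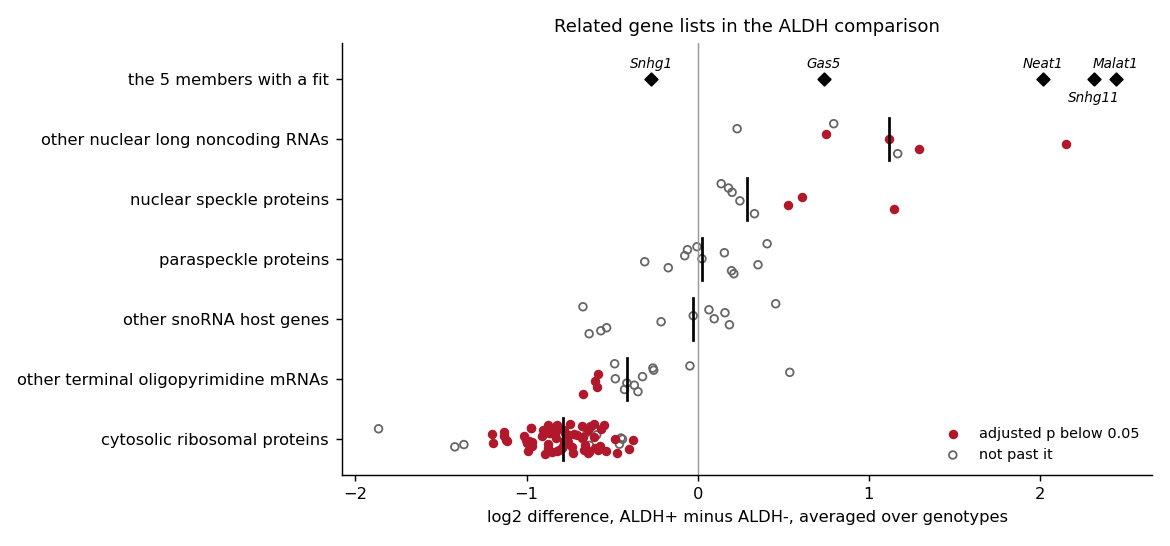
Log2 differences of ALDH+ minus ALDH- cells, averaged over genotypes, for the 5 members with a fit (diamonds) and for 6 gene lists (1 circle per gene, filled red where the adjusted p was below 0.05, with the list median as a bar). The ribosomal protein genes lay between -1.86 and -0.38, and the nuclear long noncoding RNAs between 0.23 and 2.15.

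The list directions were checked under other settings. All 79 ribosomal protein genes stayed negative, the 7 nuclear long noncoding RNAs and 8 speckle proteins positive, under another pseudocount, without rescaling and with the length dependence removed, where the medians were -0.55, 0.58 and 0.26 and the calls 43, 2 and 1. Without the cre term the calls were 18, 4 and 2, and in Rip-cre libraries alone 17, 1 and 1. The 4 calls among the other oligopyrimidine mRNAs came to 3 with the length dependence removed and to 0 without the cre term, in Rip-cre libraries alone or without control ALDH+ replicate 1, and to 2 without control ALDH- replicate 1 or 3. Without control ALDH+ replicate 1 none of the 3 lists above had a call, with medians of -0.67, 1.12 and 0.15. Without the acinar-rich libraries the calls were 53, 4 and 3, and 6 of the 7 nuclear RNAs were positive.

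None of the 6 lists had a gene called for genotype. For Pdx-cre against Rip-cre, 28 of the 79 ribosomal protein genes were higher and none lower (median 0.46), but 7 were with the length dependence removed and 0 without the acinar-rich libraries (limma). Leaving out control ALDH- replicate 3, control ALDH+ replicates 1 or 2, or replicate 5 of knockout ALDH- or ALDH+ cells left 10 to 17 of these calls. *Mirg* (0.66) and *Xist* (4.44) were also higher in Pdx-cre libraries, at adjusted p (limma) of 0.039 and 0.012. Neither was called without the acinar-rich libraries. The median of *Xist* was 0.00699 FPKM in control ALDH-, 0.0986 in knockout ALDH- and 0.265 in knockout ALDH+ libraries. The highest values there were 69.1, 54.0 and 214 FPKM, so its level rests on a minority of libraries in those groups. The sex of the mice was not in the model, and its part in the *Xist* values was not tested. In the lists of other snoRNA hosts and other oligopyrimidine mRNAs, 1 and 2 genes were higher and none lower, again with none called without the acinar-rich libraries.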

How the data were processed

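Per the labels and the submitters' processing notes, reads were made with bcl2fastq 1.8.4 and aligned with TopHat2 2.0.4 to mm9. The quantifier and annotation are not given in the sources used here. The authors deposited 1 table per library with FPKM and its confidence bounds, and they tested counts with DESeq, which was not used here. Lines with a repeated symbol (248 symbols, 712 lines) and failed or too deep lines (63) were left out. Fragments were worked out from the confidence bounds (for values up to 500 fragments, 66.5% came out whole to within 0.02, too few to recover counts), so depth is 7490987 to 10057002 fragments per library (median 9280829). Scaling factors came from TMM without weights on the FPKM (trims of 30% for M and 5% for A). Genes with a mean of at least 1 rescaled FPKM (11253) were fitted as log2(FPKM + 1) in R 4.3.3 by limma 3.58.1 (trended prior variance), 4 groups and the cre driver in all 15 libraries. A fold change on this scale understates that of low genes. Tests were two-sided with Benjamini-Hochberg adjustment. The fit was tested on simulated data.

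The members and gene lists were chosen with earlier results of these data known. Named are the members, up to 4 called genes per list with the smallest p in the ALDH comparison, the 3 genes nearest to each member, snoRNA lines within members, *Aldh1a3* and the Foxo genes, and others as single values. Libraries of 1 group correlated at 0.846 to 0.958. Alternatives were another pseudocount, no filter, no rescaling, no cre term, Rip-cre libraries alone, replicate blocks, length dependence removed by loess, each library left out, and, chosen after seeing the data, the 3 libraries with over 100 FPKM of acinar markers left out. The loess used GENCODE exon lengths. For *Gas5* and *Snhg1* these differ from the implied lengths, so values of those genes with the length dependence removed are no check on them.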

Additional observations from a re-analysis of the deposited data

Results flagged for a closer look

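*Snhg11* in Foxo knockout ALDH+ replicate 3 stood at 45.8 FPKM, apart from the other 4 libraries of its group (9.23 to 19.4 FPKM): the gap to the next was 0.722 of the range of the group on the FPKM scale, and 0.542, which does not set it apart, on the scale of log2(rescaled FPKM + 1). It was 1 of 10 sets of 5 libraries examined in this way for the members, and chance alone sets apart about 1 in 20 where values are normally distributed. *Malat1* (4027 FPKM) and *Neat1* (404 FPKM) were also highest in that library among the knockout ALDH+ libraries, without standing apart.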

How the results depend on the processing

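No member was called for genotype averaged over ALDH status or for cre driver under any alternative. In the ALDH comparison *Malat1*, *Neat1*, *Snhg11* and *Gas5* were positive under all of them. Genes called there numbered 673, and 185 without the cre term, 156 in Rip-cre libraries alone, 312 with the length dependence removed, 407 without the acinar-rich libraries and 3 to 842 without single libraries (3 without control ALDH+ replicate 1, and 366, 303 and 416 without control ALDH- replicates 1 to 3). For genotype (13 genes) they were 40 without a filter, 6 without the cre term, 5 without the acinar-rich libraries and 1 to 15 without single libraries (1 to 8 without any one control library, or without knockout ALDH- replicates 1 or 3, or knockout ALDH+ replicates 1 or 2). For the cre driver (1095) they were 123 without the acinar-rich libraries and 703 to 1269 without single libraries (703 to 706 without control ALDH+ replicate 1 or 2 or replicate 5 of either knockout group). The genotype by ALDH interaction (0) gave 16 without a filter, 3 in Rip-cre libraries, 2 without the acinar-rich libraries and 0 to 3 without single libraries, and the cre driver by ALDH interaction (0) gave 3, 4 and 0 to 2 without a filter, without the acinar-rich libraries and without single libraries. The causes were not tested.

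Signs that turned were of values not called or, for the interactions, given with no test. For the cre driver they were *Malat1* (-0.01), *Neat1* (-0.026) and *Snhg1* (-0.003) without rescaling, *Snhg1* with the length dependence removed (-0.25), and *Gas5* (0.03) and *Snhg1* (-0.016) without the acinar-rich libraries. For the genotype by ALDH interaction *Snhg1* was -0.10 with the length dependence removed, and for the cre driver by ALDH interaction *Malat1* was -0.91 and *Snhg11* -0.79 without the acinar-rich libraries. Without single libraries, the genotype value ranged from -0.12 to 0.41 for *Malat1* and from -0.066 to 0.52 for *Snhg11*, the cre driver value from -0.26 to 0.39 for *Malat1*, -0.27 to 0.19 for *Neat1* and -0.03 to 0.15 for *Snhg1*, the genotype interaction from -0.035 to 0.38 for *Snhg1*, and the cre driver interaction from -0.71 to 0.77 for *Malat1*, -0.62 to 0.44 for *Neat1* and -0.41 to 1.26 for *Snhg11*.

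Equal replicate numbers were not shown to pair libraries: residuals of same-numbered libraries correlated at -0.045 to 0.070 after group and cre means. After group means alone, r was 0.092 to 0.41 where both had the same cre driver and -0.24 where they had not. Groups this small can hardly show pairing either way. With a replicate block the calls were 721 for ALDH (750 with the block within cre driver), 12 for genotype and 1043 (960) for the cre driver, and no call of a member changed.

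The deposited FPKM carry no counts, 2 control ALDH+ libraries set the ALDH difference in controls, the *Neat1* line holds the short form's span alone, and *Miat* is below what this depth can compare.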
